A study of Mus musculus with 9 samples.

Results

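The genes described here are 30 enzymes and controllers of cholesterol and fatty acid synthesis, among 22161 gene rows measured by poly(A) RNA sequencing in whole mouse kidney. They were picked by symbol, as genes under the control of the sterol regulatory element-binding proteins (SREBPs). All 30 were found in the table, and all 30 passed the filter on low values, a mean of at least 10 normalized counts over the 9 libraries.

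Cells build cholesterol from acetyl-CoA through mevalonate, farnesyl diphosphate, squalene and lanosterol. SREBP2, encoded by Srebf2, drives most of these enzymes, while SREBP1, encoded by Srebf1, drives fatty acid synthesis more strongly. When membranes are poor in sterol, the escort protein Scap carries the SREBP precursors to the Golgi, where they are cut and released to the nucleus. When sterol is plentiful, the Insig proteins hold Scap in the endoplasmic reticulum. Insig1 is itself a target gene of SREBP, so its transcript is commonly used as a readout of the pathway.

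Kidneys came from C57BL/6 mice of 10 weeks (postnatal day 70), in 3 groups of 3 mice labelled as biological replicates. The control group is labelled Wild type (WT 1 to 3), with no allele given. The Pkd2 knockout group (KO 1 to 3) is Pkd2fl/fl;Pax8rtTA;TetO-cre, and the double knockout group (DKO 1 to 3) is Ift88fl/fl;Pkd2fl/fl;Pax8rtTA;TetO-cre. Pkd2 encodes polycystin-2, a channel whose loss causes a dominant form of polycystic kidney disease. Ift88 encodes a transport protein that cilia need. Pax8rtTA is active in tubule epithelium and switches on the cre under doxycycline, so vessels, stroma and immune cells in the same RNA are not the target of the deletion. Doxycycline (2 mg/ml, by mouth) was given to all mice, controls included, starting at postnatal day 28 and lasting 2 weeks. The mouse names differ in prefix between the groups, and WT 3 and KO 3 carry a prefix other than that of the remaining mice of their group, so prefix and genotype cannot be told apart.

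Normalized totals ranged from 40454151 to 42874467 per library. The mean of Pkd2 was 36.3% of wild type in the Pkd2 knockouts and 33.3% in the double knockouts, where Ift88 was at 69.3%. Reads from exons outside a deleted stretch still count, so these shares do not give the share of cells with the deletion. Proximal tubule markers were abundant in every library. Of the 12 listed 1 rose and 1 fell in Pkd2 knockout, where 1.14 and 1.25% of tested genes did so. In 5 of the 12 all knockout mice lay below all wild type mice, and in 1 above. Over tested genes these shares were 12.8 and 12.4%. Knockout means ranged from 63.3% of wild type for Miox to 206% for Slc5a12. Strand use in counting is not named, so overlapping antisense reads cannot be separated. In 2 mice a marker list stood apart. Of 11 clock genes, which follow the time of day, the median log2 difference from wild type was -0.51 in DKO 3 and -0.07 to 0.12 in the other 8 mice, with Arntl at 474 normalized counts in DKO 3 and 60.3 to 142 elsewhere. This median hides single clock genes that differed by group. In Pkd2 knockout, 3 of the 11 lay wholly above wild type and 2 wholly below, against 12.4 and 12.8% of tested genes. By limma and edgeR 0 of them rose or fell, and by DESeq2 1 rose. Nr1d1 was 2126 to 2167 in wild type and 3320 to 6437 in Pkd2 knockout, and Per1 was 4849 to 8248 and 2163 to 3283. The 6 erythroid markers summed to 7392 in KO 3 and to 1306 to 2766 elsewhere. Slc4a1, which is also among the collecting duct markers, gave 1218 of this sum in KO 3 and 1011 to 1837 elsewhere. The globin Hbb-bs was 3506 in KO 3 and 42.2 to 607 elsewhere.

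The stretches upstream of 3 members show which kinds of control letters these genes carry. Cyp51 and Insig1 were taken as the called members with an entry in the promoter table, which holds none for Fdft1 or Fdps, and Hmgcs1 was added after its values were seen because it had the lowest double knockout mean relative to wild type. Each run holds the 250 bases before the start of transcription, 5′ to 3′ on the gene's strand, from RefSeq on GRCm38.p6; the build behind the counts is not given in the sources used here. Capitals mark matches on either strand to TCACCNCA (the core of a sterol regulatory element, which SREBPs bind), CCAAT (the box bound by NF-Y), GGGCGG (the GC box bound by Sp1) and CACGTG (an E-box). No marked match overlaps another.
Cyp51, chr5:4104698-4104947, minus strand: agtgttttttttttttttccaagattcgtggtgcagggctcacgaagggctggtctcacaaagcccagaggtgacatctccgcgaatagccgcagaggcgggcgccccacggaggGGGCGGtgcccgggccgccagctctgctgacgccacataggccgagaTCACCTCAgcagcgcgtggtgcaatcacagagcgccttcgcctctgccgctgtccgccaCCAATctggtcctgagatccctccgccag
Insig1, chr5:28071162-28071411, plus strand: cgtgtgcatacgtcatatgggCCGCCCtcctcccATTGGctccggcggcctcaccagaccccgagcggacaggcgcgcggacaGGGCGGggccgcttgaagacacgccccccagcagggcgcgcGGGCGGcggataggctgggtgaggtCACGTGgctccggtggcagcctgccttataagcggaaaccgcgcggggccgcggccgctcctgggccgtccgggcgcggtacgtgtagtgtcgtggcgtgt
Hmgcs1, chr13:119690101-119690350, plus strand: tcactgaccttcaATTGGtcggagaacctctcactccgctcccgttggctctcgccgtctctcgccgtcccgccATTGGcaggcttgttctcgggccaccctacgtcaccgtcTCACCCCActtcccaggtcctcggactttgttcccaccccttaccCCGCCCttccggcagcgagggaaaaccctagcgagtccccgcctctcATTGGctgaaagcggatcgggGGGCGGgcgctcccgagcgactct

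The sterol element core begins 88 bases before the start in Cyp51, as TCACCTCA, and 137 bases before it in Hmgcs1, as TCACCCCA. Insig1 has an E-box 101 bases before the start and no TCACCNCA in this window. Of the 30 members 24 had an entry, with 33 windows in all. TCACCNCA was in 12.1% of these windows (Cyp51, Hmgcs1, Hsd17b7 and Srebf2), against 3.61% of the 32851 windows of all genes. CCAAT was in 60.6% against 33.8%, GGGCGG in 69.7% against 32.7% and CACGTG in 15.2% against 6.02%. The letters of the first motif were settled with these sequences in view, and a match describes the sequence only.

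**Figure D1:**
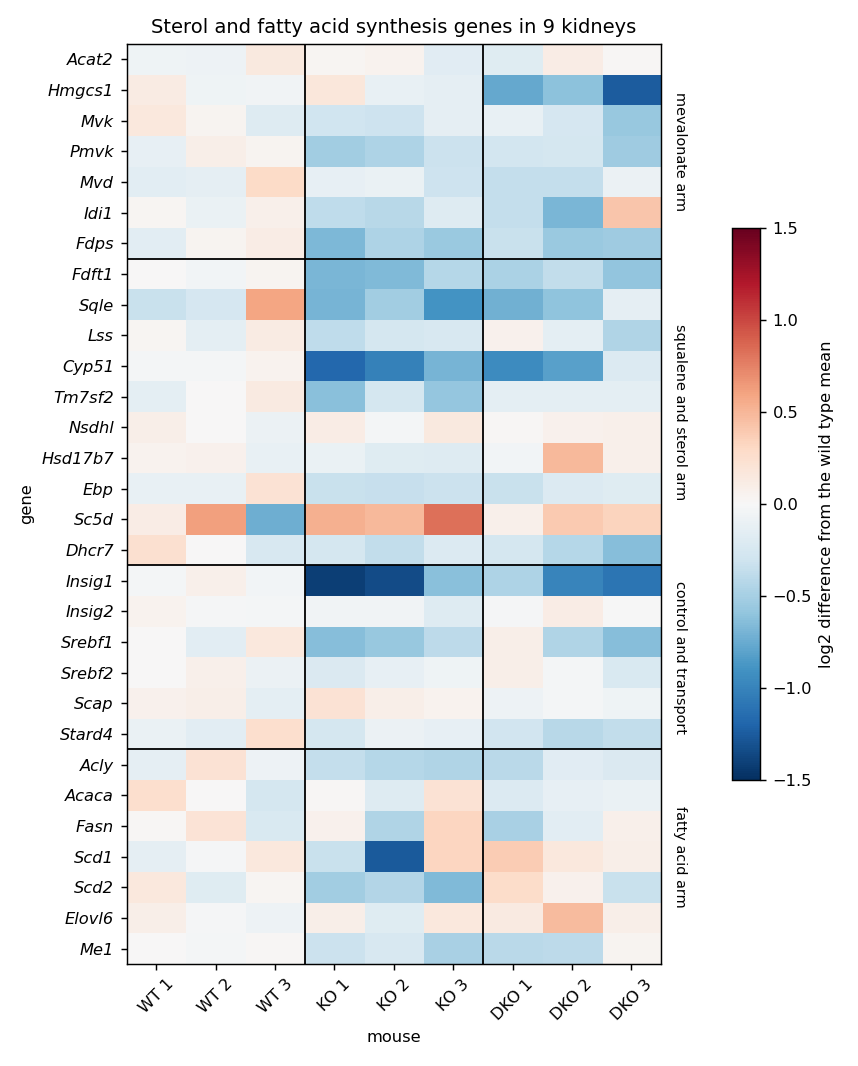
Each cell shows a gene's log2(normalized count + 1) in 1 mouse minus the mean of the 3 wild type mice, with genes in rows by role and mice in columns. Blue is lower than wild type: Cyp51 and Insig1 are blue in every mutant mouse, and Hmgcs1 is dark blue only in the 3 double knockout mice.

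The first comparison, Pkd2 knockout against wild type, asked what loss of Pkd2 did to these genes. The transcripts of Insig1, Cyp51, Fdft1 and Fdps fell, to between 47.2 and 67.5% of wild type. The other 26 members did not pass the test, and none rose. The 4 that fell were 1 of 7 members of the mevalonate arm, 2 of 10 of the squalene and sterol arm, 1 of 6 controllers and transporters and 0 of 7 of the fatty acid arm. Over all 15740 genes tested, limma (Benjamini-Hochberg adjusted p below 0.05) called 2.4%, of which 1.25% were lower and 1.14% higher, against 4 lower and 0 higher of the 30 members. All 3 knockout mice lay below all 3 wild type mice in 15 of the 30 members, where 12.8% of tested genes did so, and above them in 0, where 12.4% did so. The median log2 fold change of the members was -0.29, and that of all tested genes was 0.00. At an unadjusted p below 0.05, 13 members were lower, where 8.67% of tested genes were, and 0 were higher, where 9.36% were; edgeR and DESeq2 called 0 higher. The count of 4 fell to 0 without WT 1, WT 2, KO 1 or KO 2 and to 1 without WT 3, and rose to 6 without DKO 3, whose spread enters the fit, and to 13 with array quality weights, which called 3222 genes in all. On the 7 libraries with recovered reads edgeR called 0 members and DESeq2 called 3 (Cyp51, Insig1 and Acly).

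The mevalonate arm turns acetyl-CoA into farnesyl diphosphate. Fdps, farnesyl diphosphate synthase, stood at 449, 515 and 543 normalized counts in WT 1, 2 and 3, at 314, 364 and 339 in the knockouts and at 398, 341 and 347 in the double knockouts. Every mutant mouse lay below every wild type mouse, and the 2 mutant groups overlapped. Values of single mice keep the order 1, 2, 3 within each group throughout. The log2 fold change of Pkd2 knockout against wild type was -0.56 ± 0.11 (SE; adjusted p = 0.0403, limma), and it was no longer called without any 1 library other than DKO 3 (highest adjusted p of 0.153). Reads of Fdps may be shared with processed pseudogene copies.

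Pmvk, phosphomevalonate kinase, had the same order without passing: 384, 444 and 432 in wild type, 291, 305 and 336 in the Pkd2 knockouts and 347, 348 and 288 in the double knockouts. All 6 mutant mice were below the lowest wild type mouse (log2 fold changes of -0.43 and -0.36 against wild type; adjusted p of 0.0979 and 0.294). Mvk (mevalonate kinase), Mvd (mevalonate diphosphate decarboxylase) and Idi1 (isopentenyl diphosphate isomerase) had knockout means of 84.0, 87.5 and 79.7% of wild type, and none passed. Idi1 was 605 and 484 in DKO 1 and 2 and 1039.8 in DKO 3, the highest value of the 9 mice. Acat2, the cytosolic acetoacetyl-CoA thiolase, lay between 3013 and 3758 in all mice, with the groups overlapping throughout; its close paralog Acat3 may share its reads.

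Hmgcs1, the synthase that makes HMG-CoA, was low in the double knockouts. It was 41597, 36702 and 36780.5 in wild type, 43082, 35361 and 34998 in the Pkd2 knockouts and 22449, 25044 and 16098 in the double knockouts. All 3 double knockout mice lay below the other 6, while wild type and Pkd2 knockout overlapped. The double knockout mean was 56.1% of Pkd2 knockout and 55.3% of wild type, with log2 differences of -0.85 ± 0.16 and -0.88 ± 0.16 (SE). Neither passed limma's test over all genes (adjusted p of 0.0669 and 0.0904), whereas DESeq2 on 7 libraries called both (0.00981 and 0.00454) and edgeR called neither (0.367 and 0.457). Without DKO 3, its lowest mouse, the log2 differences of Hmgcs1 were -0.67 and -0.69 (adjusted p of 0.0556 and 0.0890, limma). The log2 difference between Pkd2 knockout and wild type was -0.02, with a 95% interval from -0.38 to 0.33. Per kilobase of merged exon length (taken from GENCODE M21, possibly not the annotation used for counting), Hmgcs1 had the highest wild type level of the members, at 8350 ± 610 normalized counts per kilobase, against 119 ± 11.5 for Fdps.

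**Figure D2:**
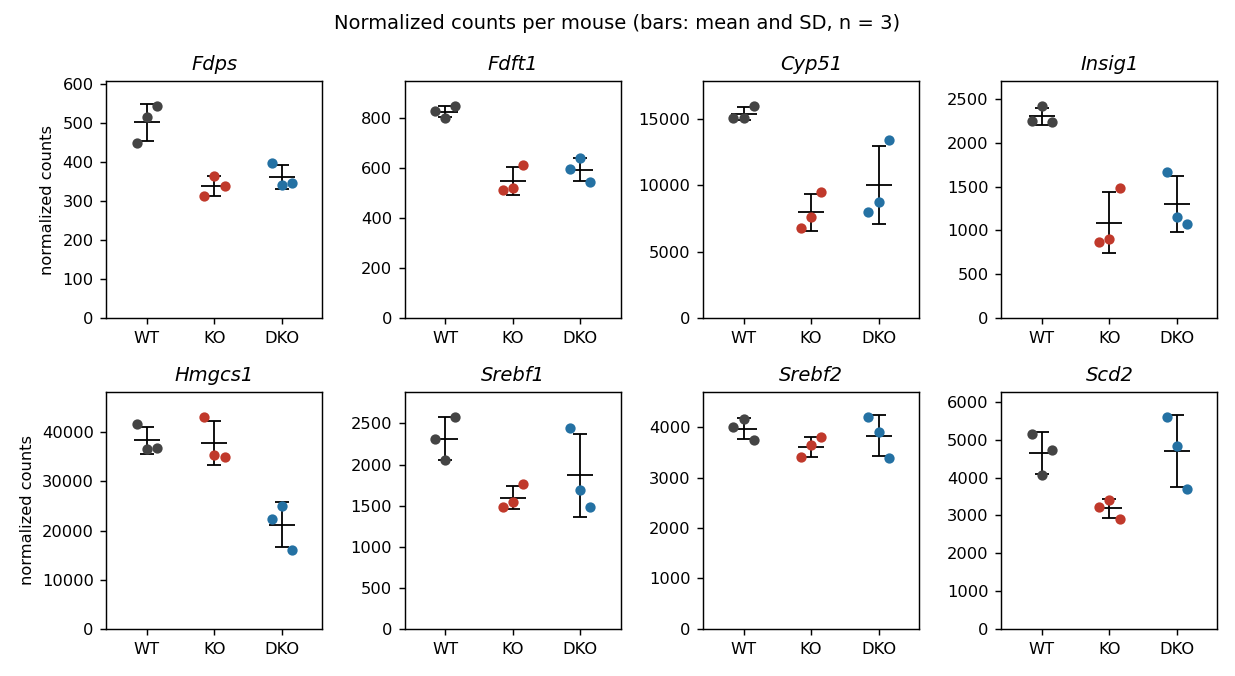
Normalized counts of 8 members are plotted by group, with a point for each mouse and bars for the mean and SD of 3 mice, on axes that start at 0. Fdps, Fdft1, Cyp51 and Insig1 are below wild type in all 6 mutant mice, Hmgcs1 is low in the double knockouts, and Scd2 is low in the Pkd2 knockouts.

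The squalene and sterol arm joins farnesyl units to squalene and works lanosterol into cholesterol. Fdft1, squalene synthase and the entry to this arm, was 829.6, 801 and 847 in wild type, 511, 522 and 614 in the Pkd2 knockouts and 596, 639 and 546 in the double knockouts. No mutant mouse reached the lowest wild type mouse. Its log2 fold change was -0.59 ± 0.10 (adjusted p = 0.0212, limma) in Pkd2 knockout, the lowest p of the members, and leaving out WT 1, WT 2, KO 1 or KO 2 ended the call, with adjusted p reaching 0.0959.

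Cyp51, the cytochrome P450 that demethylates lanosterol, was 15106, 15109.7 and 15949 in wild type, 6802, 7627 and 9471 in the Pkd2 knockouts and 7984, 8719.9 and 13387 in the double knockouts. The wild type mice lay close together and above all mutants, and DKO 3 lay closest to them. The knockout mean was 51.8% of wild type (log2 fold change -0.96 ± 0.19, adjusted p = 0.0342, limma), and the call was lost without any one of WT 1, WT 2, WT 3, KO 1 and KO 2 (highest adjusted p of 0.126). In the double knockout it was 65.2% of wild type and not called (log2 -0.66 ± 0.19, adjusted p = 0.230), but it was called there without DKO 3 (adjusted p = 0.0493).

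Msmo1, the methylsterol monooxygenase that works on the products of the Cyp51 step, is not among the 30 but belongs to a list of 20 other sterol genes. It was 1709, 1544 and 1711 in wild type, 933, 1051 and 894 in the Pkd2 knockouts and 1045, 961 and 1140.4 in the double knockouts. It fell in both mutant groups against wild type, by 0.79 ± 0.09 and 0.66 ± 0.09 on the log2 scale (adjusted p of 0.00525 and 0.0367, limma). The Pkd2 knockout call was kept without each of the 9 libraries in turn, and the double knockout call was kept without 3 of them (KO 2, KO 3 or DKO 3), with adjusted p up to 0.200 without the others. On the 7 libraries with recovered reads DESeq2 called Msmo1 in both comparisons, whereas edgeR (adjusted p of 0.141 and 0.358) and limma (0.137 and 0.388) called it in neither. In the table it stands under its older symbol, Sc4mol.

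The remaining sterol enzymes did not pass, and 4 of them had all knockout mice below all wild type mice. Tm7sf2, a sterol C14 reductase, was 412, 455 and 501 in wild type, 293, 379 and 303 in the Pkd2 knockouts and 411, 409.6 and 411 in the double knockouts (adjusted p = 0.0796 for Pkd2 knockout against wild type). Ebp, the sterol isomerase, had means of 2965 ± 396, 2338 ± 10.4 and 2497 ± 139.9 (SD, n = 3; adjusted p = 0.103). Sqle, squalene epoxidase, was 3431 and 3617 in WT 1 and 2 but 6502 in WT 3, against 2314 to 3002 in Pkd2 knockout (adjusted p = 0.173). Lss, which closes squalene epoxide into lanosterol, had a knockout mean of 81.4% of wild type. The late reductases Dhcr7 and Hsd17b7 had knockout means of 81.8 and 89.4% of wild type, with overlapping groups. Nsdhl, a decarboxylating sterol dehydrogenase, had means of 2729 ± 169.8 in wild type and 2878 ± 178 in Pkd2 knockout. Sc5d, the lathosterol oxidase, had the highest fold change of the members, 144% of wild type, but its wild type mice ranged from 823 (WT 3) to 2107 (WT 2) and it did not pass (adjusted p = 0.293).

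Among the controllers Insig1 fell and Insig2 did not pass, and the difference between their changes was not tested. Insig1 was 2253, 2414 and 2232 in wild type, 866, 905 and 1487 in the Pkd2 knockouts and 1665, 1155 and 1079 in the double knockouts. All mutants were below all wild type mice, and KO 3 stood apart from KO 1 and 2. The knockout mean was 47.2% of wild type, the lowest share of the 30 members (log2 fold change -1.13 ± 0.22, adjusted p = 0.0342, limma). That call was lost on leaving out any one of WT 1, WT 2, WT 3, KO 1 and KO 2 (adjusted p up to 0.124). Insig2, whose product also retains Scap, was 1959, 1863 and 1852 in wild type, 1815, 1829 and 1652 in the Pkd2 knockouts and 1870.2, 2034 and 1877 in the double knockouts. Its knockout values lay just below the wild type range, at 93.3% of wild type on average, and did not pass (log2 -0.10, 95% interval from -0.26 to 0.06).

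The transcripts of the SREBPs and their escort did not pass in any comparison. Srebf1 was 2310.0, 2059 and 2577 in wild type, 1484, 1549 and 1758 in the Pkd2 knockouts and 2443, 1690.0 and 1479 in the double knockouts. Its groups did not overlap between wild type and Pkd2 knockout (log2 -0.53 ± 0.17, adjusted p = 0.146), and DKO 1 lay within the wild type range. Srebf2 was 3992, 4170.4 and 3745 in wild type, 3404, 3636 and 3797 in the Pkd2 knockouts and 4197, 3896 and 3390.5 in the double knockouts, with all groups overlapping. Scap was 3823, 3894 and 3300.4, then 4268, 3879.9 and 3789, then 3463, 3589 and 3513, and its highest mean was in Pkd2 knockout (adjusted p = 0.468 against wild type). Stard4, a carrier of cholesterol between membranes, had means of 4337 ± 691, 3861 ± 249.7 and 3356 ± 155. RNA levels do not show how much SREBP was cut or nuclear.

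The fatty acid arm had no member that passed limma's test in any of the 3 comparisons, and DESeq2 on 7 libraries called 1, Acly, lower in Pkd2 knockout (adjusted p = 0.0370). Acly, which makes cytosolic acetyl-CoA from citrate, was 7472, 9562 and 7819 in wild type, 6445, 6140.3 and 6043 in the Pkd2 knockouts and 6241, 7314 and 7077 in the double knockouts. All mutants lay below all wild type mice (75.0 and 83.0% of wild type; adjusted p of 0.0753 and 0.352, limma). Me1, malic enzyme and a source of NADPH, was 18348 to 19006 in wild type and 13392 to 15879 in Pkd2 knockout (adjusted p = 0.172). In the double knockout Me1 was 14209.9 and 14323 in DKO 1 and 2 and 19321 in DKO 3, above every wild type mouse.

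Scd2, a stearoyl-CoA desaturase, was 5162, 4072 and 4724 in wild type, 3223, 3415 and 2915 in the Pkd2 knockouts and 5597, 4825 and 3686 in the double knockouts. The Pkd2 knockout mice lay below all others. Its log2 differences were -0.54 ± 0.15 for Pkd2 knockout against wild type and 0.54 ± 0.15 for double knockout against Pkd2 knockout, and neither passed (adjusted p of 0.101 and 0.194). These comparisons share the Pkd2 knockout mice. The related Scd1 varied most between knockout mice, at 6929.8, 3639.7 and 10925 in KO 1, 2 and 3, with 7901 to 9750.0 in wild type and 9293 to 11325 in double knockout kidneys. Elovl6, which lengthens palmitate, had means of 960.4 ± 56.1, 979 ± 117 and 1137 ± 175.

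Acaca and Fasn, the carboxylase and the synthase that build palmitate, were near equal between wild type and Pkd2 knockout in their means. Fasn was 5564 ± 830.3 and 5563 ± 1441 (log2 -0.02, 95% interval from -0.49 to 0.45), and Acaca was 837 ± 148 and 843 ± 122 (log2 0.01, interval from -0.31 to 0.34). Their values were set beside those of fat cell markers, mouse by mouse. The 10 adipocyte markers summed to 2709 to 4470 normalized counts in wild type, 2916 to 8773 in Pkd2 knockout and 2155 to 3463 in double knockout kidneys, with Adipoq, the adipocyte hormone adiponectin, between 50.1 (WT 3) and 460.1 (KO 3). Fabp4 alone gave 1747 of the 2709 in WT 3, 2216 of the 2916 in KO 2 and 1331 of the 2155 in DKO 1. In KO 3 it gave 3395 of the 8773, so low sums rested mostly on this 1 gene. Of the 10 markers 1 was at 0 in each of WT 3, DKO 2 and DKO 3. No adipocyte marker was called by limma, edgeR or DESeq2 in any comparison; in limma 1 was higher in Pkd2 knockout than wild type, 2 were lower in double than in Pkd2 knockout and 0 differed between double knockout and wild type at an unadjusted p below 0.05. Across the 9 mice, Fasn correlated with the summed markers on the log2 scale with a Pearson r of 0.84 (exact permutation p = 0.00367; 0.0257 adjusted over 7 genes of the arm) and a Spearman rho of 0.85 (exact permutation p = 0.00607; adjusted 0.0213). Without KO 1 and KO 3, the 2 mice farthest from the median of the markers, r was 0.87. Acaca had r of 0.73 (exact permutation p = 0.0237, adjusted 0.0552) and rho of 0.87 (exact permutation p = 0.00451, adjusted 0.0213), and r was 0.61 without those 2 mice. Scd2 went the opposite way, with r of -0.75 (exact permutation p = 0.0158, adjusted 0.0552) and rho of -0.60 (exact permutation p = 0.0968, adjusted 0.226), and r was -0.37 without KO 1 and KO 3. For Scd2, Scd1, Acly, Elovl6 and Me1 no adjusted p passed. Leaving out KO 1 and KO 3 moved r from -0.11 to 0.77 for Acly and from -0.34 to 0.45 for Me1. It moved r from 0.11 to -0.10 for Scd1 and from 0.16 to 0.08 for Elovl6. The permutations exchanged mice across all 3 groups. These p-values therefore do not separate a difference between groups from a relation between single mice. The relation was not computed within the groups, which hold 3 mice each, and the part of fat in these values was not tested.

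**Figure D3:**
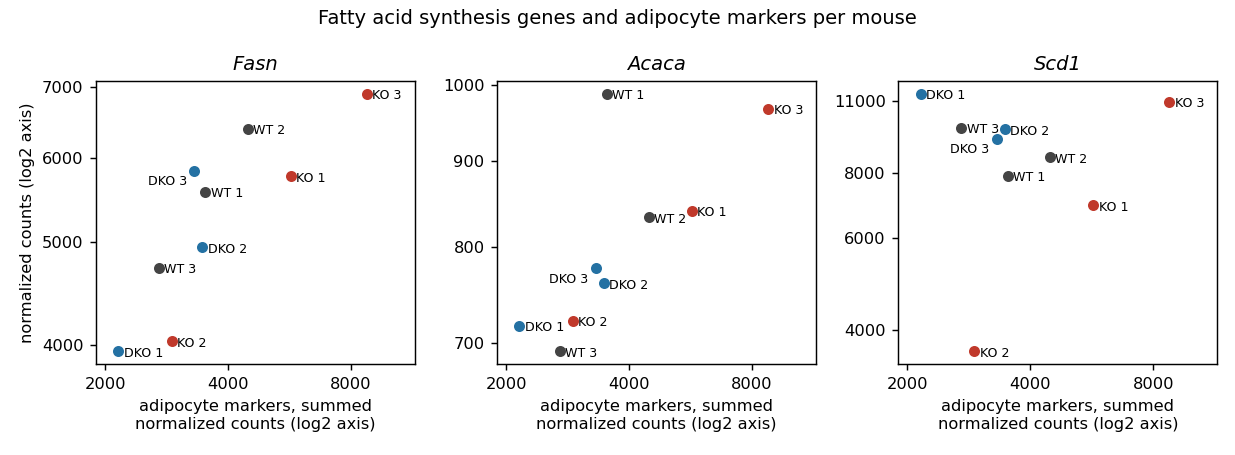
Normalized counts of Fasn, Acaca and Scd1 are plotted against the sum of 10 adipocyte markers, with a point for each mouse and log2 axes. Fasn and Acaca tend to be high where the markers are high, as in KO 3, although WT 1 has the highest Acaca at a middle marker level, and Scd1 has no such order, with a Pearson r of 0.11.

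The second comparison set double knockout against Pkd2 knockout kidneys, and so asked what loss of Ift88 on top of Pkd2 did. Of the 30 members limma called 0, where it called 0.394% of all tested genes, 0.267% lower and 0.127% higher. At an unadjusted p below 0.05, 3 members were higher (Scd2, Tm7sf2 and Hsd17b7) and 1 was lower (Hmgcs1), against 4.19 and 6.49% of tested genes. Of the 30, edgeR called 0 and DESeq2 1, Hmgcs1. The groups did not overlap in 4 members that were higher and 4 that were lower, against 7.4 and 7.78% of tested genes. The median log2 difference of the members was 0.10, and that of all tested genes 0.00. The 4 genes that fell in Pkd2 knockout had double knockout means of 107 to 126% of the Pkd2 knockout mean, and none of these differences passed. These 4 genes were chosen for low values in the same Pkd2 knockout mice, a choice that can by itself raise such shares. Their log2 differences and 95% intervals were 0.31 (-0.11 to 0.73) for Cyp51, 0.28 (-0.21 to 0.77) for Insig1, 0.11 (-0.11 to 0.34) for Fdft1 and 0.09 (-0.17 to 0.35) for Fdps. Each interval includes 0.

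The third comparison, double knockout against wild type, uses the same wild type mice as the first. Limma called 0 members, where it called 0.229% of all tested genes, 0.152% lower and 0.0762% higher. At an unadjusted p below 0.05, 10 members were lower and 0 higher, against 5.81 and 5.93% of tested genes. Of the 30, edgeR called 0 and DESeq2 1, Hmgcs1. All double knockout mice lay below all wild type mice in 11 members, where 9.24% of tested genes did so, and above them in 0, where 9.1% did so. The median log2 difference of the members was -0.23, and that of all tested genes was 0.00. Beside Hmgcs1, the lowest p-values belonged to Fdft1 (log2 -0.48 ± 0.10, adjusted p = 0.128), Fdps (-0.47 ± 0.11, 0.166) and Insig1 (-0.85 ± 0.22, 0.185). Stard4 and Dhcr7, a late reductase, were also below wild type in all 3 double knockout mice (77.4 and 73.4% of wild type; adjusted p of 0.254 and 0.259).

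**Figure D4:**
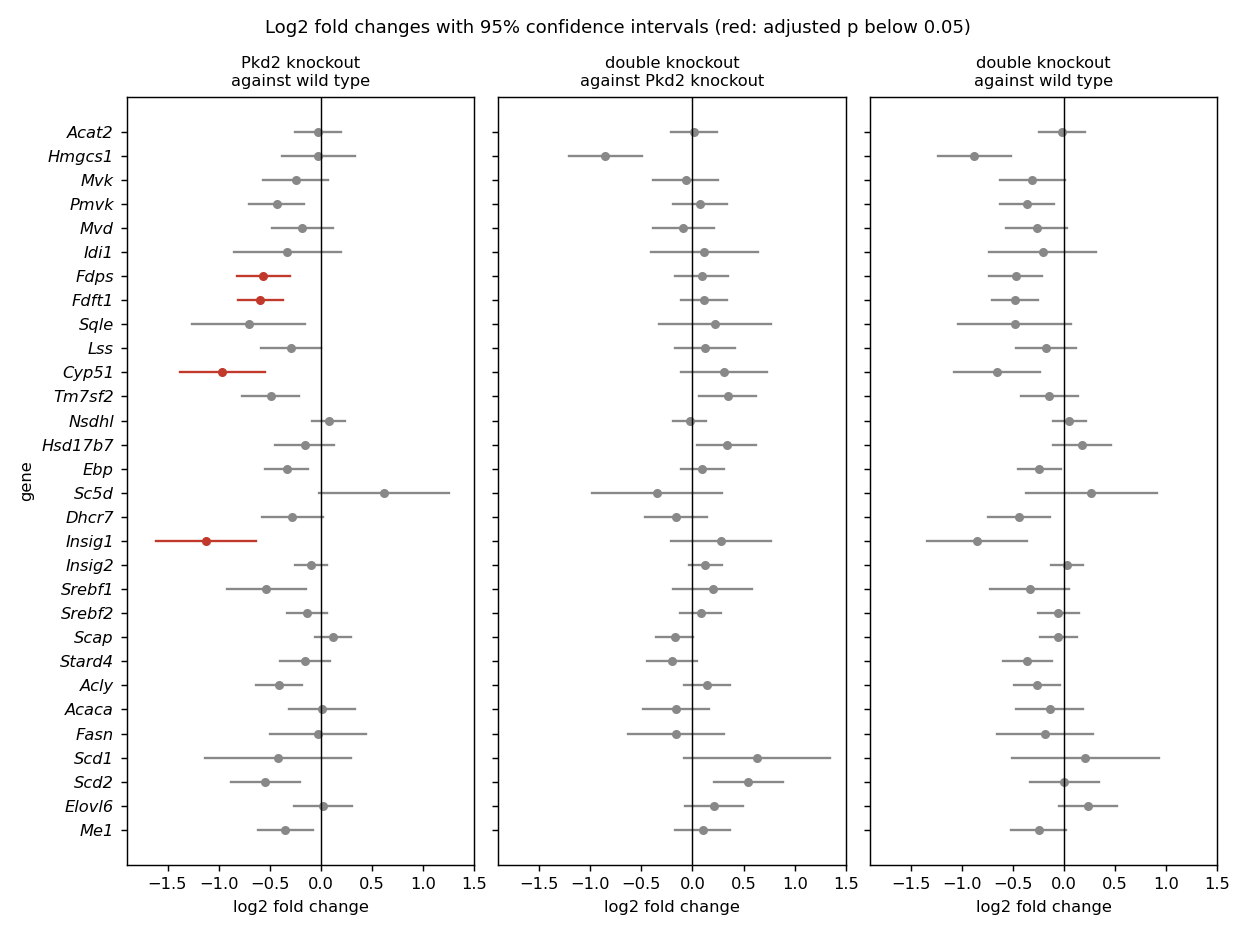
Points give limma's log2 fold change of each member and lines its 95% confidence interval, in 3 panels for the 3 comparisons, with red for an adjusted p below 0.05. Red appears only in the first panel, for Fdps, Fdft1, Cyp51 and Insig1. In both other panels the Hmgcs1 interval lies wholly below 0. In the second panel those of Scd2, Tm7sf2 and Hsd17b7 lie wholly above 0. In the third those of Pmvk, Fdps, Fdft1, Cyp51, Ebp, Dhcr7, Insig1, Stard4 and Acly also lie wholly below 0.

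In each single mutant mouse, between 16 and 23 of the 30 members were below the lowest wild type mouse. KO 2 had 23 such members and none above the wild type range, KO 1 had 20 and 3, and KO 3 had 19 and 5. DKO 1, 2 and 3 had 17, 17 and 16 below and 4, 3 and 3 above. Over all tested genes, 28.2 to 31.2% were below and 27.3 to 31.4% above the wild type range in these mice. The members' medians, as log2 differences from the wild type mean, were -0.31, -0.29 and -0.20 in KO 1, 2 and 3 and -0.24, -0.19 and -0.17 in DKO 1, 2 and 3.

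Lists of related genes were counted in the same fit. Of 20 other genes of sterol synthesis, storage and efflux, limma called 1 lower in Pkd2 knockout against wild type and 1 in double knockout against wild type, Msmo1 each time, where 2.4 and 0.229% of all tested genes were called. In double against Pkd2 knockout it called 0, as did edgeR and DESeq2. At an unadjusted p below 0.05, 2 were higher and 1 lower there, against 4.19 and 6.49% of tested genes. The median log2 fold changes of the 20 were -0.03, 0.00 and 0.07 in these comparisons, and single genes ranged from -0.79 to 0.33 in the first. Of 23 other genes of fatty acid and triglyceride synthesis, which count Srebf1 again, Fads1 was the 1 that fell in Pkd2 knockout. Limma called 1.25% of tested genes lower there. Of the 23, 5 lay wholly below wild type and 2 wholly above, against 12.8 and 12.4% of tested genes. The median log2 fold change of these 23 was -0.09 in Pkd2 knockout against wild type, with single genes from -0.53 to 0.38. Fads1 encodes a desaturase of polyunsaturated fatty acids. It went from 4419, 4561 and 4951 in wild type to 3131, 3546 and 3408 in Pkd2 knockout, a log2 fold change of -0.47 ± 0.07 (adjusted p = 0.0175, limma), and was 3709.9, 4002 and 3637 in double knockout kidneys. Leaving out WT 1, WT 2, KO 1 or KO 2 ended the call on Fads1, with adjusted p reaching 0.0778, as did edgeR (0.193) and limma (0.183) on the 7 libraries with recovered reads, while DESeq2 called it. Limma, edgeR and DESeq2 called 0 of the 23 in the other comparisons. At an unadjusted p below 0.05, 2 were higher and 0 lower in double against Pkd2 knockout, against 4.19 and 6.49% of tested genes. In double knockout against wild type 1 was higher and 2 were lower, against 5.93 and 5.81%.

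Markers of several cell types were summed in each mouse, and the lists did not all change in the same mice. The 9 listed markers of the thick ascending limb summed to 364017 to 383008 normalized counts in wild type, to 173926 to 211491 in the Pkd2 knockouts and to 228525 to 298344 in the double knockouts. Of these 5 fell in Pkd2 knockout and 0 rose by limma, where 1.25% of tested genes fell; DESeq2 called 5 lower and edgeR 0, with 8 lower at an unadjusted p below 0.05 in limma. None was at 0 in any library, and their sums were lower in all 6 mutant mice than in any wild type mouse, as were the transcripts of Fdft1, Fdps, Cyp51 and Insig1. The 7 markers of cycling cells all rose in Pkd2 knockout by limma and DESeq2, where limma called 1.14% of tested genes higher, and 1 of them by edgeR, with sums of 418 to 546 in wild type, 2564 to 3219 in Pkd2 knockout and 513 to 1125 in double knockout kidneys. Of 8 tested collecting duct markers 1 fell by limma and DESeq2 and 0 by edgeR in Pkd2 knockout. Limma called 1.25% of tested genes lower there. All 8 had lower means in Pkd2 knockout, and 7 lay wholly below wild type, where 12.8% of tested genes did so. Macrophage markers summed to 18969 and 19713 in KO 1 and 2 but to 10717 in KO 3, within the wild type range of 10642 to 11952, and to 8356 to 12696 in double knockout kidneys. Cd74 alone gave 10978, 11864 and 4803 of the sums in KO 1, 2 and 3. Of the 9 macrophage markers, 2 (Csf1r and Mrc1) lay wholly above wild type in Pkd2 knockout, where 12.4% of tested genes did so. Limma, edgeR and DESeq2 called 0 of the 9 there, and DESeq2 called 1 lower in double against Pkd2 knockout. The 12 proximal tubule markers summed to 882284 to 896762 in wild type, 864739 to 875111 in Pkd2 knockout and 901937 to 1000140 in double knockout kidneys. DKO 3, the mouse apart in clock genes, had the highest Idi1 and Me1 of all 9 mice and the highest Cyp51 of the mutants. The same mouse had the lowest Hmgcs1, Mvk, Pmvk, Lss, Dhcr7, Srebf1 and Srebf2 of all 9 mice. The part of these cell types, clock genes and erythroid markers in the members' values was not tested. In whole kidney RNA, fewer cells of a type and less RNA per cell cannot be told apart. Of the adrenal cortex, a steroid-making neighbour of the kidney, 7 listed markers were in the table and summed to 183 to 253 normalized counts. Its steroid hydroxylases Cyp11b1, Cyp11a1 and Cyp21a1 were at most 0.975, 4.02 and 1.87, while Star was 101 to 161 and Akr1b7 was 61.6 to 113 in every library. These last 2 markers were the only ones tested, and 0 were called in any comparison by limma, edgeR or DESeq2, or at an unadjusted p below 0.05.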

How the data were processed

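Values in the deposited table are normalized counts (unit signal, not whole counts), 1 per gene and library. The authors made them with STAR 2.5.0, HTSeq 0.6.1 and DESeq2, as the submitters' processing notes list. For the genome build, annotation, strand setting and DESeq2 version the entry is "not given in the sources used here". Dividing by the value of 1 read (0.906 to 1.13) returned whole numbers, within 0.05, for 100% of values, and 37056843 to 47314829 reads in each of 7 libraries. In WT 1 and KO 1 that value is so near 1 that whole reads were not taken as recovered, and both stayed out of the count tests.

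One limma fit (version 3.58.1 in R 4.3.3) held all 3 groups, on log2(normalized count + 1) with an intensity trend and 15740 genes at a mean of 10 or more. P-values were two-sided and adjusted by Benjamini-Hochberg over all tested genes, with a threshold of 0.05. Fold changes on this scale understate the change of low genes. Errors are SD over 3 mice unless SE is named. The 3 comparisons share mice. Recovered reads were also tested with edgeR 4.0.16 and DESeq2 1.42.0, and other scalings, filters, pseudocounts and left-out libraries were tried. Same-numbered libraries correlated in their deviations from the group means at -0.14 to 0.21, above 0.1 in 2 of 9 pairs, so numbers were not taken to pair mice. The fit was tested on simulated data. Promoters came from RefSeq and exon lengths from GENCODE M21.

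Members and lists were chosen with earlier results of these data known. The rule gave values in every mouse for called members and the SREBP controllers, and for up to 4 called genes of each pathway list. Per-mouse values of other members were added after they were seen.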

Additional observations from a re-analysis of the deposited data

How the results depend on the processing

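Counts of genes called in Pkd2 knockout against wild type, double against Pkd2 knockout and double knockout against wild type, in this order, were 377, 62 and 36, with 4, 0 and 0 members lower. Array quality weights gave 3222, 614 and 295 genes and 13, 1 and 4 members. A replicate block gave 217, 15 and 20 genes and 1, 0 and 0 members, the 1 being Cyp51, and Msmo1 was not called in the third comparison (adjusted p = 0.130, limma). On the 7 libraries with recovered reads, edgeR gave 11, 10 and 10 genes and 0 members, limma 13, 11 and 11 genes and 0 members, and DESeq2 296, 149 and 111 genes and 3, 1 and 1 members. Quantile normalization gave 31 genes in the second comparison, and fitting only the 2 groups compared gave 26. Without an intensity trend 2 members were lower in the first comparison and 24 genes were called in the third. Without WT 3 and KO 3 together, a setting chosen after seeing the data, counts were 513, 311 and 115 genes and 2, 0 and 0 members, with a member median of -0.18 in the third comparison. Leaving out 1 library gave 70 to 436, 8 to 155 and 18 to 58 genes, 0 to 6, 0 to 0 and 0 to 1 members lower, and member medians of -0.31 to -0.23, 0.06 to 0.11 and -0.25 to -0.18. The cause of these changes was not tested, except that 7 libraries or 8 leave fewer mice. The 4 calls on members kept their sign under all 24 alternatives, and 21 of the 86 uncalled values of a member in a comparison changed sign under at least 1. With 3 mice a group, intervals of single members span about the size of many of these differences.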
